A study of Mus musculus with 2 samples.

Results

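Fcer1g and 8 other genes usual in myeloid cells (Tyrobp, Syk, Ptprc, Cd68, Cd14, Laptm5, Csf1r and Spi1) were followed in LM8, a mouse osteosarcoma cell line that spreads to the lung. These 9 genes, of 12393 with a probe set annotated to them alone, were read from all 15 of their probe sets, dim ones included. They were chosen by name with earlier results in view: Fcer1g had been seen to differ strongly between these same arrays, so every ratio below is a description and carries no test. The data were 2 Affymetrix mouse arrays, 1 per group. One group was a stable LM8 clone transfected with full-length human PHD4 (hPHD4) cDNA in pcDNA3.1, a vector whose viral CMV promoter drives its insert. The other was a stable LM8 clone with empty pcDNA3.1. Both clones were cultured cells selected in 0.5 mg/ml G418, so the vector, the drug selection and the cloning were common to them, and no tumour tissue or host cells were part of the samples. Each group stood for 1 clone and 1 array, and a difference between them cannot be told apart from a difference between any 2 clones of the line. PHD4 is a prolyl hydroxylase of the endoplasmic reticulum membrane, and the comparison asked how cells overexpressing it differed from control cells. The transgene was human, while the array's probes are for mouse genes. No probe set was assigned to the mouse gene P4htm alone either (0 found). The labels could therefore not be checked by a signal of the transgene.

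In myeloid cells, Fcer1g encodes the Fc receptor gamma chain, a small membrane adaptor that carries the signal of receptors for antibodies and of several C-type lectins. Its cytoplasmic tail holds an immunoreceptor tyrosine-based activation motif (ITAM), as does the tail of DAP12, the adaptor encoded by Tyrobp. When the receptors are engaged, Src-family kinases phosphorylate the motif and the kinase SYK docks on it. In bone, both adaptors are known as costimulatory signals for the formation of osteoclasts, the bone-resorbing cells of the myeloid lineage. The transcription factor PU.1, encoded by Spi1, directs many genes of that lineage, Csf1r among them. Osteosarcoma cells are of mesenchymal origin and are not a usual site of these genes.

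Promoter sequences are shown for Fcer1g and for Cd68 and Laptm5, since these were genes read in both clones, Fcer1g lower in the hPHD4 clone and the others not. Csf1r, also read in both clones and not lower, is not shown. The windows are the 250 bases before the annotated gene start, from RefSeq (GRCm38.p6). Promoter windows were taken for 5 of the 9 genes, without Csf1r and Cd14. This count does not tell whether RefSeq held promoters for the others. Capitals mark GGAA or its reverse complement TTCC, the core letters read by ETS-family factors such as PU.1.
Fcer1g promoter, chr1:171234350-171234599, minus strand: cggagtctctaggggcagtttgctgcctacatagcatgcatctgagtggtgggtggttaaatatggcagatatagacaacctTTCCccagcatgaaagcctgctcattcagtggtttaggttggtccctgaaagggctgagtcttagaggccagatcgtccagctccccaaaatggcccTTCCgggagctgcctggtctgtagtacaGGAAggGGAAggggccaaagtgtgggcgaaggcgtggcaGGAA
Cd68 promoter, chr11:69666171-69666420, minus strand: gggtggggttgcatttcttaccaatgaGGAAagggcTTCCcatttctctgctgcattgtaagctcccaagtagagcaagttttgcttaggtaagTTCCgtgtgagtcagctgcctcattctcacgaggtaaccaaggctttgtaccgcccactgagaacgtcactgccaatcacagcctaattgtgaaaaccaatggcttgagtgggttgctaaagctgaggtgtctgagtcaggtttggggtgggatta
Laptm5 promoter, chr4:130913066-130913315, plus strand: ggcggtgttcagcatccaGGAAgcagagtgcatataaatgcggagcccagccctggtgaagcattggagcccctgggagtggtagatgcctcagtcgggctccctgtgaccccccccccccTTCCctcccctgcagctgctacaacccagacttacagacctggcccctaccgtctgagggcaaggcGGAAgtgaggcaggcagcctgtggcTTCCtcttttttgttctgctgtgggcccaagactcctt
The letters GGAA, searched on both strands, occurred 5 times in the Fcer1g window, 3 times in that of Cd68 and 4 times in that of Laptm5. They occurred in 93.4% of 32851 promoter windows of the same length, with a median of 3 matches. The longer GAGGAA, which overlaps GGAA, was found 1 time in each of the Cd68 and Laptm5 windows and 0 times in that of Fcer1g, against 23.3% of all windows with a match. Ptprc and Syk, which were not read in both clones, each had a window with 1 match of GAGGAA and another with 0. These are matches of letters and not shown to be bound in these cells.

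Signals are MAS5 values on the linear scale unless called log2, and each pair of signals is given with the hPHD4 clone first and the control clone second. A probe set counted as above background when it lay over the 40th percentile of its array, which was a signal of 81.1 for hPHD4 and 67.8 for the control. These floors lay close to the 95th percentile of 65 probe sets for olfactory and vomeronasal receptors, which was 82.7 and 68.4. Of those 65, which belong to genes not usual in bone tumour cells, 5 and 4 lay above the floor. A gene was called measured when at least 1 probe set lay above the floor in both clones. For passing the floor in 1 clone only, or in neither, no share over all genes was taken. Such counts are given without a comparison and are not read as particular to the genes counted. Ratios are of the hPHD4 clone over the control clone, averaged on the log2 scale over measured probe sets. With no replicate, the disagreement among probe sets of 1 gene served as a yardstick. The SD of their log2 ratios was 0.35 over 2800 genes, which leaves out differences between cultures and arrays. Among the 8096 probe sets under the floor in both clones, 46.2% differed at least 2-fold and the median log2 ratio was 0.37. Among measured probe sets 3.42% differed that much, so no ratio is read from a probe set under the floor.

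Of the 9 genes, 4 were measured in both clones (Fcer1g, Cd68, Laptm5 and Csf1r), against 60.1% of all genes. Cd14 passed the floor only in the control clone and Spi1 only in the hPHD4 clone. Tyrobp, Syk and Ptprc lay under it in both. By probe set, 4 of 15 were above the floor in both clones (57.2% of all probe sets), 2 with hPHD4 only, 2 in the control only and 7 in neither. Only Fcer1g (1 of the 4) was lower by 2-fold or more with hPHD4, as were 0.98% of all measured genes. None of the 4 was 2-fold or more higher (0, against 1.89% of measured genes), and the other 3 had log2 ratios above 0, as did 53.6% of measured genes. Over all measured genes past 2-fold, 65.9% were higher, and the share was 54.1% after quantile normalization and 55% after loess correction.

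**Figure D1:**
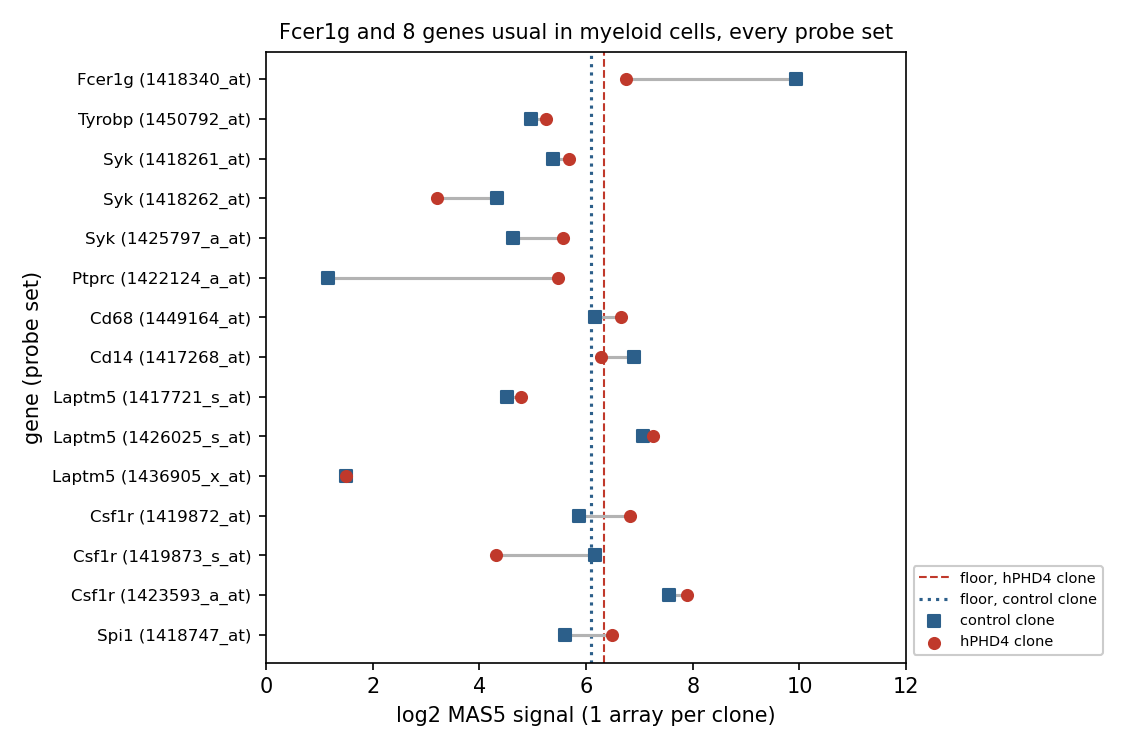
Log2 MAS5 signal of every probe set of the 9 genes in the control clone (squares) and the hPHD4 clone (circles), 1 array each, with the floor of each array as a dashed or dotted line. Fcer1g had a log2 signal of 9.94 in the control and 6.74 with hPHD4, while no signal of the remaining 14 probe sets was above 7.89, that of 1 probe set of Csf1r.

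Fcer1g was read by 1 probe set (1418340_at, gene on chromosome 1). Its signal was 106.8 with hPHD4 and 979.8 in the control. The control signal was far above the floor and brighter than 84.3% of that array's probe sets, and the hPHD4 signal was a little above the floor, brighter than 45.4%; this is a rank of brightness and does not order transcripts by amount. The difference was 9.17-fold, a log2 ratio of −3.20. It was larger than the SD between probe sets of 1 gene in its range of brightness (0.37), and the middle 95% of the 500 probe sets nearest to it in mean signal spanned −0.85 to 1.09. Fcer1g had the second lowest ratio of 7452 measured genes. It was chosen for its difference between these same arrays, so its rank and its distance from these spreads are no test. Both spreads were matched on mean signal and not on the hPHD4 signal, which was near the floor. The ratio rests on that single probe set, and since the lower of its signals was close to background, background in that signal can make the fold too small. Whether fewer cells carried the transcript or each cell carried less of it cannot be told apart in RNA from a whole culture.

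Tyrobp, whose product DAP12 is the other ITAM adaptor of myeloid cells, had signals of 37.9 and 31.2 (1450792_at). Both were below the floors of 81.1 and 67.8. The 3 probe sets of Syk, the kinase that docks on phosphorylated ITAMs, were likewise all under the floor. Their signals were 51.4 and 41.7 (1418261_at), 9.28 and 20.1 (1418262_at), and 47.7 and 24.8 (1425797_a_at). Fcer1g was thus bright in the control clone while the second adaptor and the kinase were not read above background there.

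Ptprc encodes CD45, the transmembrane phosphatase found on nearly all nucleated blood cells. Its probe set (1422124_a_at) had signals of 44.3 and 2.23. Both lay under the floor, where differences of this kind were common, and no fold is given. Spi1, the gene of PU.1, had signals of 90.0 and 48.9 (1418747_at). The first was just above its array's floor and the second under it.

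Csf1r, the receptor for the macrophage growth factors CSF-1 and IL-34, was measured on 1 of its 3 probe sets. That probe set, 1423593_a_at, had signals of 236.6 and 187.7, both above the floor, with a log2 ratio of 0.33 against an SD of 0.40 between probe sets of genes as dim. The second, 1419872_at, passed the floor only with hPHD4, at 113.6 and 58.4. The last, 1419873_s_at, passed it only in the control, at 19.8 and 72.1. With 1 signal of each under the floor, no ratio is read from these, and the gene's value rests on the single measured probe set.

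Cd14 encodes the co-receptor that hands lipopolysaccharide to Toll-like receptor 4. Its signals were 77.2, just under the floor, and 119.7, above it (1417268_at). With 1 of them under the floor, no ratio is read from it.

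Cd68 and Laptm5 encode membrane proteins of late endosomes and lysosomes that are abundant in macrophages and in blood cells. Cd68 had signals of 101.0 and 72.2 (1449164_at), each above the floor of its array by a small margin. Its log2 ratio of 0.48 was somewhat larger than the SD of 0.40 between probe sets and inside the middle 95% of probe sets of like signal, −1.10 to 1.55. Laptm5 was measured on 1 of its 3 probe sets (1426025_s_at), with signals of 151.9 and 133.2. Its log2 ratio of 0.19 was smaller than the same SD of 0.40. The other 2 were dim in both clones, at 27.4 and 23.0 (1417721_s_at) and at 2.84 and 2.82 (1436905_x_at). Names ending in _s_at or _x_at mark probes that can match more than 1 transcript or related sequences, so the single measured reading of Laptm5 is uncertain as to its source.

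**Figure D2:**
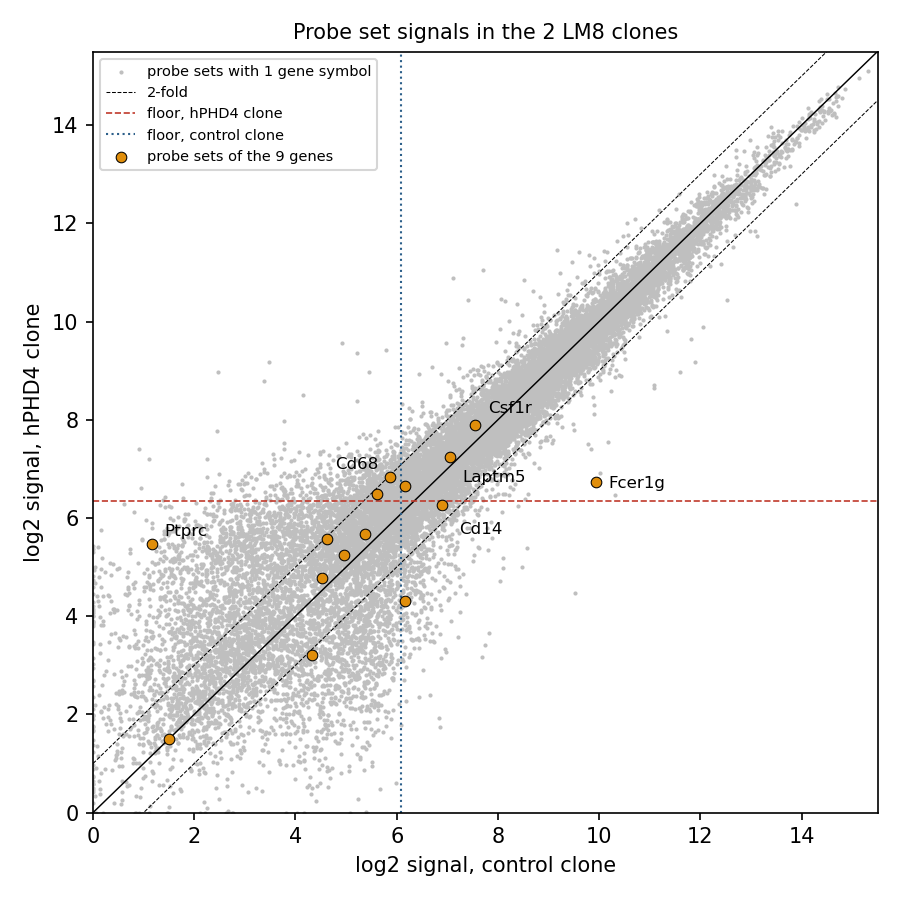
Log2 signal in the control clone (horizontal) against the hPHD4 clone (vertical) for every probe set with 1 gene symbol, in grey, and for the 15 probe sets of the 9 genes, in orange; dashed diagonals are 2-fold differences and the horizontal and vertical lines are the floors. Fcer1g lies far below the diagonal at 9.94 in the control and 6.74 with hPHD4, and the cloud widens under the floors, where Ptprc lies.

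The receptors that use the gamma chain were mostly dim in both clones. In the wider list of ITAM adaptors and Fc receptors, 4 of 15 genes on the array were measured, Fcer1g included, against 60.1% of all genes. The median log2 ratio of the 4 was 0.10, and over all measured genes the median was 0.03. Fcgr1, Fcgr3, Fcgr4 and Fcer1a, which encode antibody-binding chains that need the gamma chain for signalling or for surface display, were all under the floor in both clones. Their signals were 36.0 and 33.1 for Fcgr1, 10.3 and 14.0 for Fcgr3, 63.1 and 23.1 for Fcgr4, and 36.4 and 10.4 for Fcer1a. The measured genes besides Fcer1g were Fcgr2b, Hcst and Fcgrt. Fcgr2b, the inhibitory IgG receptor, which signals without the gamma chain, had signals of 274.1 and 149.7 on 1435476_a_at, a log2 ratio of 0.87, while its other 3 probe sets were under the floor in both clones. Hcst, encoding the adaptor DAP10, which has no ITAM, had signals of 117.1 and 107.0. Fcgrt, the neonatal Fc receptor of many tissues, had 559.3 and 535.1, a log2 ratio of 0.06.

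Receptors that pair with the gamma chain or with DAP12 gave a like picture. Of 14 on the array, 2 were measured, 2 passed the floor with hPHD4 only and 10 in neither clone, with a median log2 ratio of 0.42 over the 2. These 2 were Sirpa, at 125.5 and 85.3 (log2 ratio 0.56), and Clec7a, at 97.5 and 80.6. Sirpa and Clec7a carry signalling motifs of their own and were put in the list as relatives. Oscar, an osteoclast receptor that signals through the gamma chain, passed the floor with hPHD4 on 1 of 2 probe sets (1451710_at), at 120.5 and 33.4, and under it in both clones on the other, at 54.8 and 43.6. Trem2, a DAP12 partner in macrophages and osteoclasts, had 67.7 and 55.9 on its brighter probe set (1421226_at), under both floors.

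**Figure D3:**
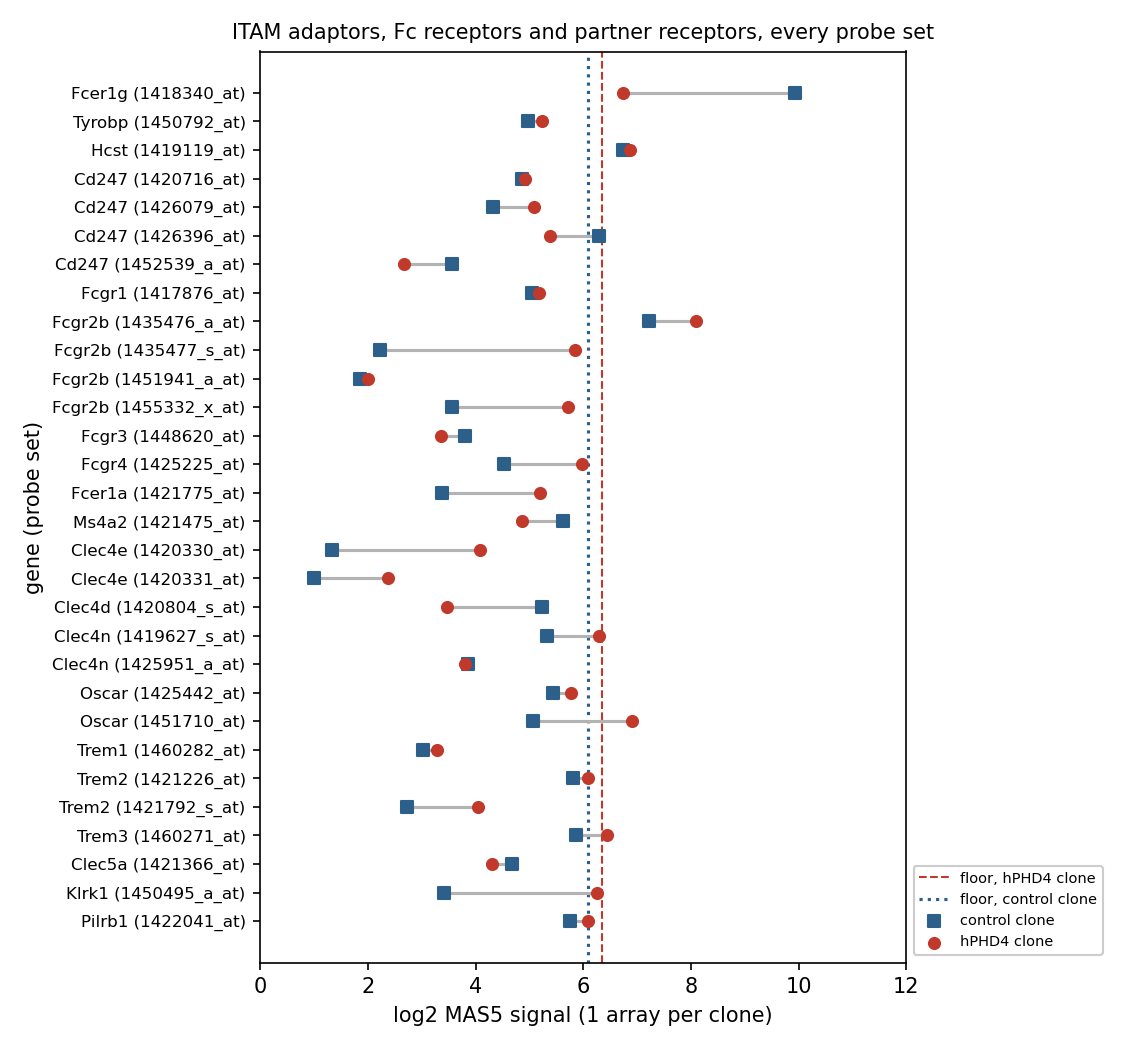
Log2 MAS5 signal of every probe set of the ITAM adaptors, Fc receptors and partner receptors shown, in the control clone (squares) and the hPHD4 clone (circles), 1 array each, with both floors. Fcer1g at 9.94 in the control clone stands to the right of all others, and most probe sets lie left of both floors.

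Of the genes downstream in ITAM signalling, 18 of 34 on the array were measured (52.9%, against 60.1% of all genes). Log2 ratios above 0 were held by 10 of the 18, where 53.6% of all measured genes had one, and the median was 0.09. Past 2-fold there were 2 higher, Nfatc2 and Plcg2, and 0 lower, against 1.89% higher and 0.98% lower of all measured genes. Nfatc2, a calcium-dependent transcription factor, had signals of 173.0 and 73.0 on 1425901_at, a log2 ratio of 1.25, and its other 3 probe sets were under the floor in both clones. Plcg2, the phospholipase C that SYK activates in blood cells, had 185.8 and 85.4, a log2 ratio of 1.12. The control signals of both lay close to the floor of 67.8. Among genes largely restricted to blood cells, the kinase gene Btk, at 14.2 and 40.4, was under the floor in both clones. Of the kinase genes Zap70, a relative of Syk, and Fgr, of the Src family, both were measured. Zap70 had mean signals of 183.8 and 166.7 over its 2 probe sets, whose log2 ratios of −0.27 and 0.55 had opposite signs. Fgr had 140.1 and 72.9, a log2 ratio of 0.94.

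Growth factor and pattern receptors around Csf1r and Cd14 were also examined. Of the CSF ligands and receptors 3 of 14 were measured, with a median log2 ratio of −0.31. Csf1, encoding the ligand of the CSF-1 receptor, was measured on all 4 of its probe sets, with log2 ratios from −0.85 to −0.06 and a mean of −0.41. On the brightest of them (1460220_a_at) the signals were 2447 and 3324. Il34, the gene of the other ligand, was under the floor in both clones, at 67.6 and 59.4. Of the lipopolysaccharide and Toll-like receptor genes 10 of 18 were measured, and the median was 0.19. Ratios above 0 were held by 7 of the 10, against 53.6% of all measured genes. Tlr4, the receptor served by CD14, had signals of 112.5 and 69.8 (1418162_at) and of 135.3 and 126.1 (1418163_at), with log2 ratios of 0.69 and 0.10. The farthest of the 10 measured genes was Tollip, an inhibitor of Toll-like receptor signalling, at 0.71. Lbp, the gene of the lipopolysaccharide-binding protein of serum, passed the floor only with hPHD4, at 252.2 and 13.7, and so has no measured ratio.

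Myeloid transcription factors were measured in 8 of 22 cases, with 3 ratios above 0 (53.6% of all measured genes) and a median log2 ratio of −0.15. Past 2-fold were 1 lower, Mitf, and 0 higher, against 0.98% lower and 1.89% higher of all measured genes. Mitf, a factor of osteoclasts and melanocytes, was past 2-fold lower on 1 of 2 probe sets (1455214_at), with signals of 116.9 and 249.8 and a log2 ratio of −1.10. Its other probe set was under the floor in both clones. Single probe sets of 2 more genes were past 2-fold, though their gene means were not. Ets1 had log2 ratios of −1.65, −1.22 and 0.39 on its measured probe sets, with a mean of −0.83. Klf4 went the other way, at 0.24 and 1.42, with a mean of 0.83. Cebpa, a factor of early myeloid cells, and Irf8, a factor of monocytes, were under the floor in both clones, with Cebpa at 52.7 and 15.0. The list of relatives of Cd68 and Laptm5 holds both genes beside lysosomal membrane and sorting genes of most cells. It was measured in 9 of 10 cases with a median of −0.04, and Cd68 itself had the largest ratio. Receptor-type tyrosine phosphatases and partners of CD45 were measured in 6 of 18 cases with a median of 0.05; Ptpre was the farthest, at 0.75.

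Markers of blood cell types were dim as a whole. Over 10 lists (the adaptors and receptors above and the markers of leukocytes, macrophages, granulocytes, mast cells, osteoclasts, dendritic cells, lymphocytes and red cells or platelets), 156 genes on the array were not among the 9, and 25 of them were measured (16%). A further 106 were under the floor in both clones, 15 passed it only with hPHD4 and 10 only in the control. Of all genes, 60.1% were measured, and no share of all genes was taken for the other counts. The 25 had a median log2 ratio of 0.14, and 18 lay above 0, where 53.6% of all measured genes did. The counts past 2-fold stand beside 0.98% lower and 1.89% higher over all measured genes. Past 2-fold lower was 1, Cd74, whose product escorts MHC class II molecules, with signals of 116.6 and 252.5. Past 2-fold higher was 1, Ctsk, the collagen-degrading cathepsin K of osteoclasts, with signals of 202.2 and 95.3.

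By cell type, pan-leukocyte markers were measured in 2 of 21 cases (Laptm5 and Lsp1, the latter at 121.2 and 115.5), with a median of 0.13, and 16 were under the floor in both clones. Monocyte and macrophage markers, with Csf1r, Cd68 and Cd14 among them, were measured in 7 of 32 cases with a median of 0.27. Gpnmb, a lysosomal glycoprotein gene also active in osteoblasts, was the farthest at −0.82, with 728.1 and 1289. Granulocyte markers were measured in 1 of 16 cases (Ngp, log2 ratio 0.27) and mast cell and basophil markers in 1 of 14 (Gata2, 0.29). Osteoclast markers were measured in 5 of 13 cases with a median of 0.19; Acp5, encoding the acid phosphatase that defines osteoclasts, was under the floor at 8.46 and 8.40. Dendritic cell and MHC class II genes were measured in 3 of 15 cases (median 0.06), lymphocyte markers in 2 of 20 (median −0.01, with Blk at −0.17) and erythroid and platelet markers in 3 of 10 (median 0.18, with Itga2b at 0.25).

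Osteoblast markers were measured in 11 of 14 cases (78.6%, against 60.1% of all genes), with a median log2 ratio of −0.01. Dmp1 and Phex were under the floor in both clones, and Postn passed it only in the control. Sp7, the osterix transcription factor, had signals of 3039 and 2588, and Alpl, encoding bone alkaline phosphatase, 3712 and 3218. Omd (osteomodulin) was at least 2-fold lower at −2.15, and Ibsp (bone sialoprotein) at least 2-fold higher at 1.09. Over all measured genes, 0.98% were that much lower and 1.89% that much higher.

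**Figure D4:**
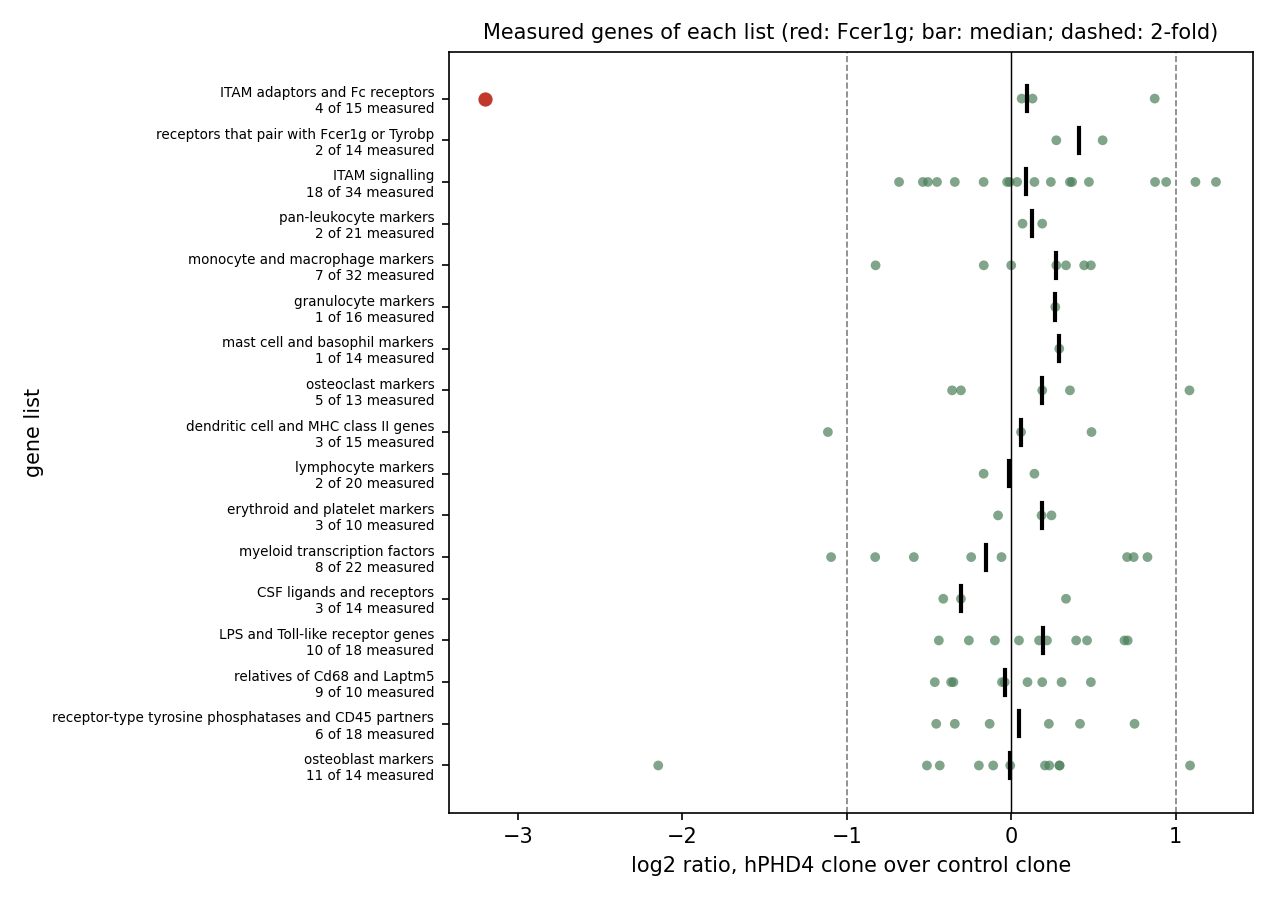
Log2 ratio, hPHD4 clone over control clone, of each measured gene in 17 gene lists, with the list median as a bar and 2-fold differences as dashed lines. Fcer1g (red) at −3.20 lies apart from the other ITAM adaptors and Fc receptors, and among the remaining genes shown Omd is the lowest at −2.15.

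Fcer1g did not differ together with the genes beside it. In the gene order of assembly GRCm38.p6 it lies between Apoa2, an apolipoprotein gene, and Adamts4, an aggrecan-degrading protease gene. Apoa2 had signals of 98.2 and 99.1, a log2 ratio of −0.01. Adamts4 had 198.3 and 100.3 on its 1 measured probe set, a log2 ratio of 0.98. Of the 10 nearest genes with a probe set of their own, 5 on each side, 9 were measured, with ratios from −0.12 (Ppox) to 0.98. None was at least 2-fold lower (0) or higher (0). The 420 measured genes of chromosome 1 had a median of 0.16.

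**Figure D5:**
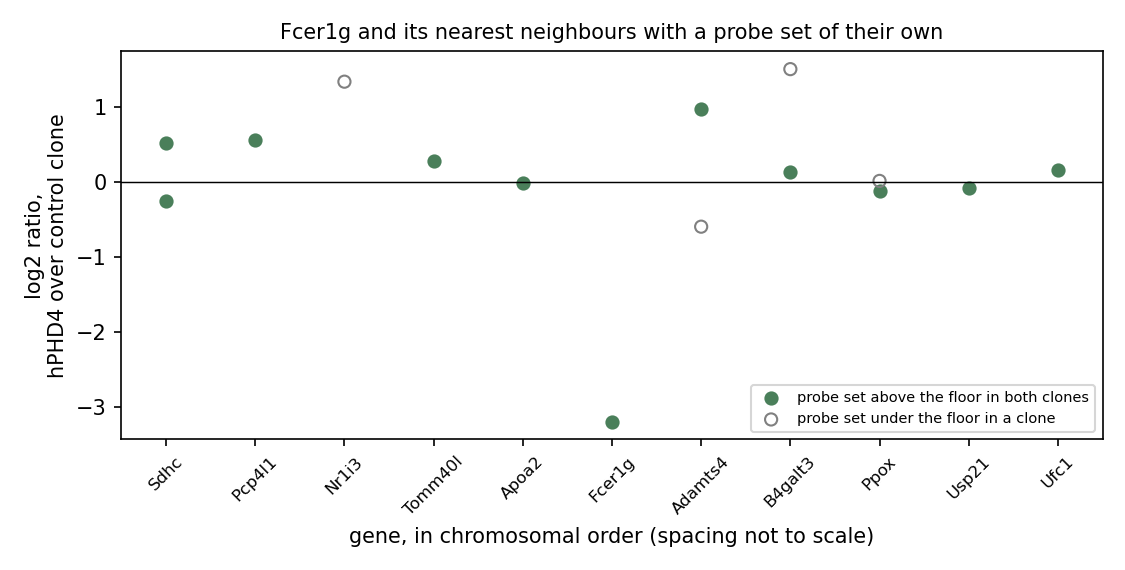
Log2 ratio, hPHD4 clone over control clone, of each probe set of Fcer1g and its 10 nearest neighbours in chromosomal order; filled points are above the floor in both clones and open points are not. Filled points of the neighbours run from −0.24 (Sdhc) to 0.98 (Adamts4), and Fcer1g is at −3.20.

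The measured genes with log2 ratios nearest to that of Fcer1g, over the same 2 arrays, were Ogn (osteoglycin) at −3.48, Lum (lumican) at −2.62, Thbs2 (thrombospondin 2) at −2.57, Prelp at −2.50 and Mgp (matrix Gla protein) at −2.26. Gene symbols ending in Rik, or starting with Gm and a digit, were passed over in choosing these. Among all measured genes, Ogn was the 1 with a lower ratio than Fcer1g.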

How the data were processed

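Biotin-labelled targets from 5 µg of total RNA of each clone were hybridised to 1 array each. The authors deposited 1 log2 signal for each probe set. MAS5 is named for it in the submitters' processing notes, and its version and settings are not given. Detection calls were not used. The log base and scaling were inferred from the deposited values: as powers of 2 their mean, with 2% trimmed at each end, was 500.2 on both arrays. Of 22690 probe sets, 64 were control probe sets and 20380 had 1 gene symbol, of which 20351 matched the RefSeq gene table (GRCm38.p6). Each gene's log2 ratio was the mean over probe sets above the 40th percentile of both arrays. With 1 array per group there was no test and no p-value. The number of arrays limits the precision. A gene dim on one array and above the 75th percentile on the other would have been given as a bound; no listed gene met this.

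The members and lists were chosen with earlier results of these data known. Members that belong to a list are counted in it, except in the total of 156 blood cell genes. Named genes were all members; from each list up to 4 measured genes at least 2-fold apart, or else the farthest one; the 5 genes nearest to Fcer1g in ratio; and 5 neighbours on each side. Members of a list named for their role (such as Fcgr1, Fcgr2b, Tlr4, Lbp, Csf1, Acp5 and Sp7) were added after their values were seen. The same holds for Ets1 and Klf4, named for their probe sets, and for Dmp1, Phex and Postn. Alternatives covered scaling, floor, filter, probe set choice, chromosome and fold threshold. A loess correction (span 0.3) was among them. The gene ratios, the SD between probe sets and the alternatives other than the fold threshold were tested on simulated data. Changes were put only into genes with a brighter mean signal than any member had. The other steps were not tested in this way. Python 3.11.15, numpy 2.4.6 and pandas 2.3.3 were used.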

Additional observations from a re-analysis of the deposited data

How the results depend on the processing

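The log2 ratio of Fcer1g was −3.35 to −3.20 under the 8 alternatives that gave one. At a 60th percentile floor its hPHD4 signal lay under the floor, and the difference became a bound of at least 4.18-fold lower. The number of the 9 genes measured in both clones, 4, was 8 at a 20th percentile floor, 0 at a 60th and 2 without probe sets ending in _x_at, _s_at or _a_at. The number at least 2-fold lower, 1, was 0 at a 60th percentile floor, and the number at least 2-fold higher was 0 under all 11 alternatives. Log2 ratios stayed above 0 where measured: 0.24 to 0.48 for Cd68, 0.06 to 0.26 for Laptm5 and 0.26 to 0.65 for Csf1r. Ratios of Cd14, Spi1, Syk and Tyrobp, measured at the 20th percentile floor, were −0.63, 0.88, 0.62 and 0.28. That of Syk left out 1418262_at, at −1.11, which was under that floor with hPHD4. With no filter and a common floor, Spi1, Syk and Tyrobp were at 0.15, 0.00 and 0.00, and Cd14 stayed negative. All of these probe sets lay under the 40th percentile floor in at least 1 clone, so these ratios are not read as differences. Of all genes, 73 were at least 2-fold lower and 141 higher; these counts were 188 and 605 at a 20th percentile floor, 34 and 45 at a 60th, 389 and 666 for a 1.5-fold threshold and 19 and 21 for 3-fold. Of 12 list medians, 10 had the other sign in at least 1 alternative, and all 12 stayed within 0.35, the SD between probe sets, of the value in the report. No paired analysis was possible because each group had 1 array. Readings near the floor limit Cd68, Cd14 and Spi1.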
